A study of Homo sapiens with 9 samples.

Results

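The 8 human genes described here are WT1, SORL1, FGD5, MCM5, RAB40C, TSPAN32, ZMYND8 and TSNARE1. They were chosen by peak width: each lies at 1 of the 10 widest H3K27ac peaks that were called in DMSO-treated cells and had no overlapping peak after ACBI-1. The choice therefore rests on the same contrast that most of the values below describe, and those values are a description with no test. Peaks were taken from the span of each gene plus 25 kb on each side, 1165 kb in all. These 8 windows held 86 of the 52967 H3K27ac peaks in ACBI and 178 of the 90495 in DMSO, with 20 of the 19893 RUNX1 peaks, 11 of the 7445 BRG1 peaks and 18 of the 12834 H3K4me3 peaks.

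The cells were DND-41, a human line of T-cell acute lymphoblastic leukemia (T-ALL), profiled by CUT&RUN, in which an antibody tethers micrococcal nuclease to its target and the released DNA is sequenced. For H3K27ac the cells had received 100 nM ACBI-1, which causes degradation of SMARCA2, SMARCA4 and PBRM1, proteins of the SWI/SNF complexes, or the vehicle DMSO. RUNX1, BRG1 and H3K4me3 were profiled in cells with no treatment label. Each target and condition had 1 library, so differences could not be checked in replicates or tested; the length of treatment was not given. The labelled cell type was not checked against marker genes, since no annotation of the files' genome build, hg19, was used here.

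H3K27ac marks active promoters and enhancers, and H3K4me3 marks mainly active promoters. BRG1, the product of SMARCA4, is an ATPase of SWI/SNF, a complex that moves nucleosomes and keeps many enhancers accessible. RUNX1 is a sequence-specific transcription factor of blood cells and a regulator of T-cell development. A histone mark at an enhancer can disappear while the promoter of the same gene keeps its mark, so the gene body and the 5′ end are given separately below.

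A DMSO peak is called lost when no ACBI peak overlaps it by 1 bp and kept otherwise, and an ACBI peak is called gained when no DMSO peak overlaps it. The lists hold positions only, so depth and peak height are unknown. A lost peak is one that was not called, and some of the mark may still have been there. Over the whole lists, ACBI peaks covered 70.8 Mb and DMSO peaks 127.2 Mb, and 59.1% of all DMSO peaks were lost.

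The 10 widest lost peaks ended at 5999 bp, the TSNARE1 peak. The next 2 measured 5994 bp (chromosome 9) and 5986 bp (chromosome 7), so the limit separates near-equal widths. The other 2 of the 10, of 6758 bp on chromosome 22 and 6506 bp on chromosome 12, belong to none of the 8 genes. Loss at this width was rare: 2685 DMSO peaks were at least 5999 bp wide, and 10 of them (0.372%) were lost.

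The genes divided by their 5′ ends, a division made after the values were seen. At SORL1, MCM5, RAB40C, ZMYND8 and TSNARE1, H3K4me3 lay within 2 kb of the 5′ end of the span, H3K27ac was called there in ACBI and in DMSO, and the wide lost peak lay further into the gene. At WT1, TSPAN32 and FGD5 no H3K4me3 peak lay within 2 kb of the 5′ end, and no ACBI H3K27ac peak did. At WT1 and TSPAN32 the lost peak itself covered the 5′ end. Spans were given to the nearest kb, and distances below are counted from the 5′ end, positive into the gene.

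**Figure D1:**
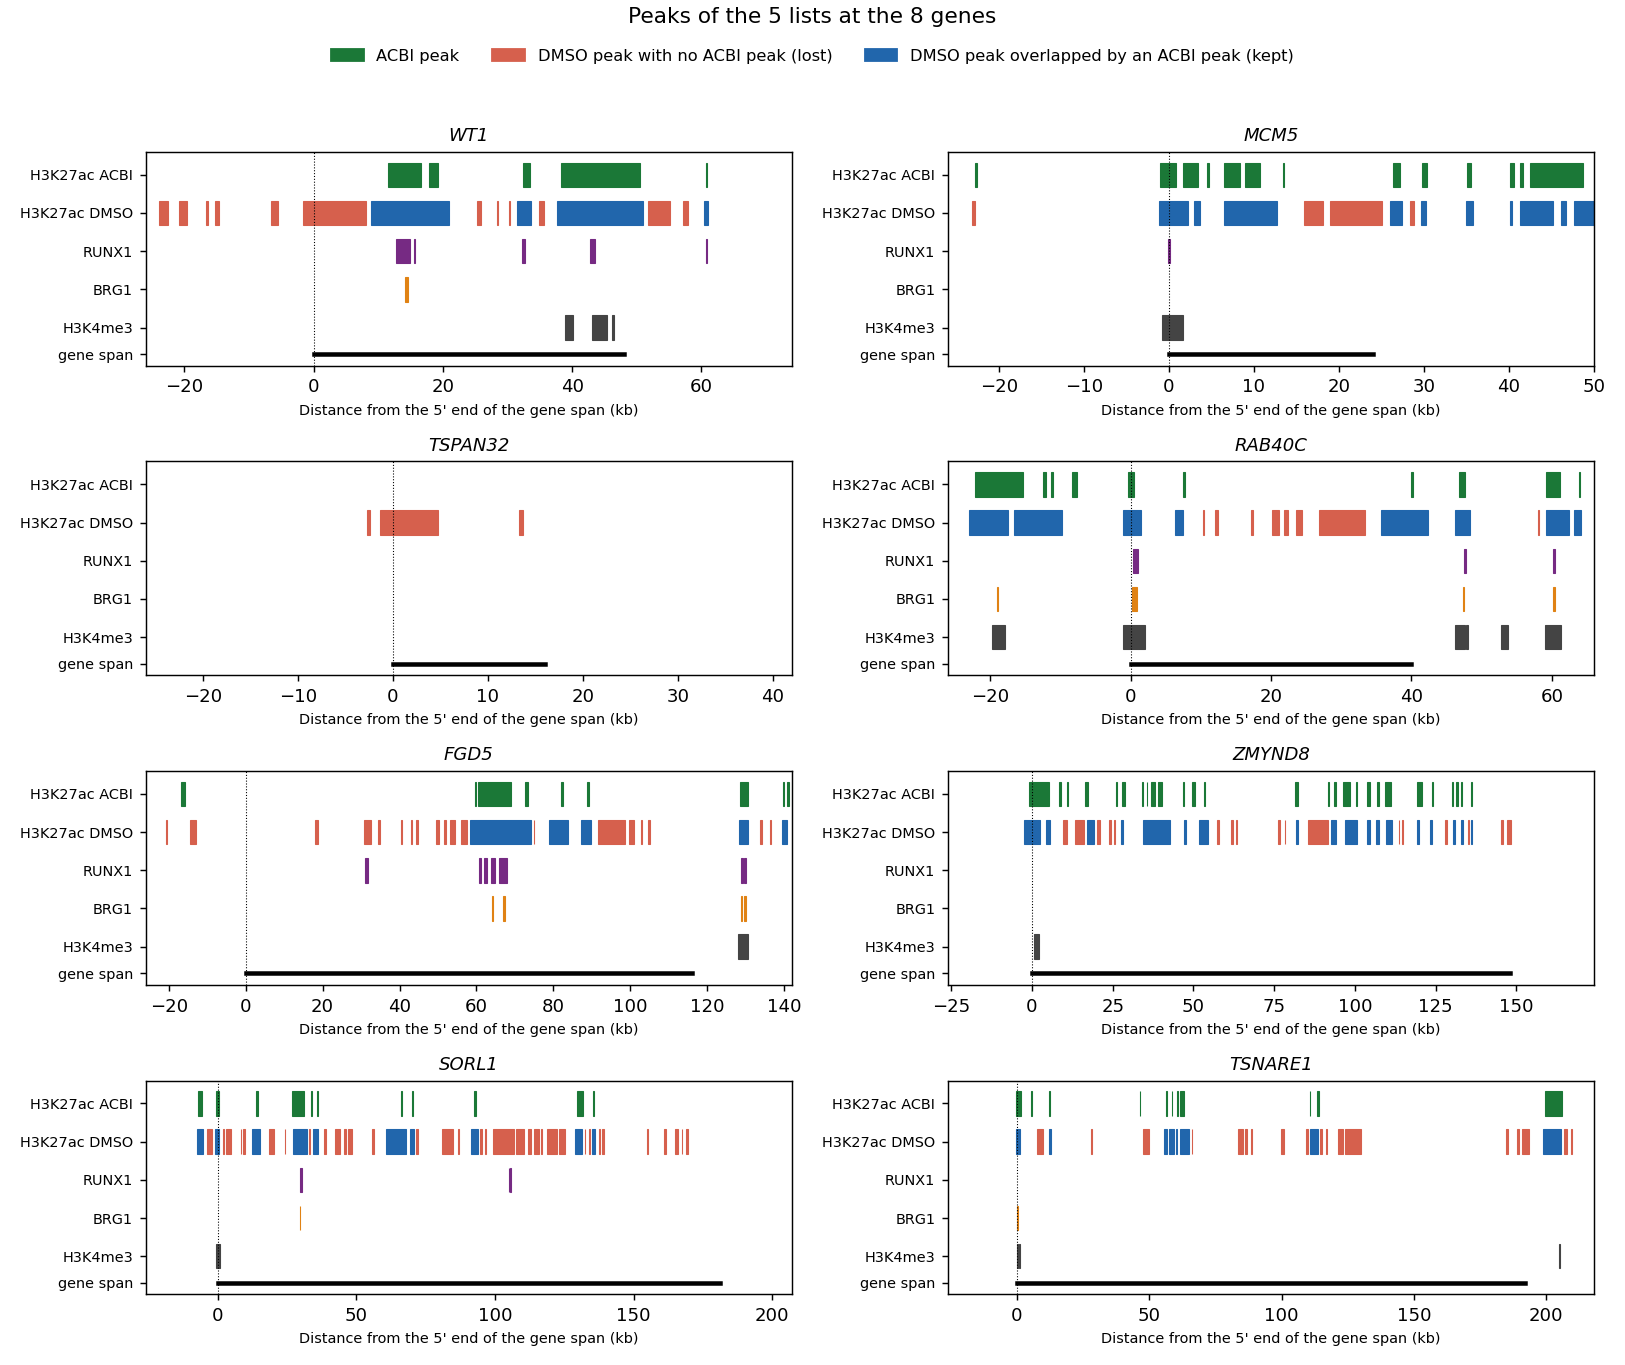
Peaks of the 5 lists in each gene window. The horizontal axis is the distance in kb from the 5′ end of the gene span (dotted line), the black bar is the span, and each box is a peak; DMSO H3K27ac peaks are red when lost and blue when kept. At WT1 and TSPAN32 the widest red box crosses the dotted line, while at the 5 genes of the H3K4me3 group a green ACBI box lies on it.

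WT1 encodes a zinc finger transcription factor of kidney and gonad development that is recurrently mutated in acute leukemias. Its span is 32409 to 32457 kb on chromosome 11 of hg19, on the minus strand. The widest lost peak of the whole DMSO list, 9858 bp (32448882 to 32458739), ran from 1.7 kb upstream of the 5′ end to 8.1 kb inside the gene. It held no RUNX1, BRG1 or H3K4me3 peak. The nearest ACBI peak was 3344 bp away on the gene's side, and on the upstream side, towards EIF3M, the next ACBI peak was 133944 bp away. It was the first of 26 consecutive lost DMSO peaks over 134.7 kb, of which the other 25 lay upstream of the gene. Over all 53490 lost peaks of the list, the median run held 4 peaks, counted per peak, and the 90th percentile was 10.

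The rest of WT1 kept much of its acetylation. A domain of H3K27ac at the 3′ end, 37.7 to 51.0 kb from the 5′ end, measured 12181 bp in ACBI and 13235 bp in DMSO, and 92.0% of the DMSO peak was covered in ACBI. It held all 3 H3K4me3 peaks of the window, of 294, 2310 and 1235 bp, and a RUNX1 peak of 744 bp. These H3K4me3 peaks lay 38.9 kb or more from the 5′ end, so the promoter-type mark at WT1 sat at the opposite end of the gene from the lost peak.

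The remaining wide domain of WT1 lay directly beside the lost peak. In DMSO it was 1 peak of 12093 bp (32436056 to 32448148), which began 8.9 kb from the 5′ end. In ACBI 2 peaks of 5185 and 1214 bp stood in its place and covered 52.9% of it. The wider of these held the BRG1 peak of the window (370 bp) and a RUNX1 peak of 2085 bp (32442130 to 32444214), and the ACBI peak covered both fully. The other 3 RUNX1 peaks of the window, of 189, 515 and 190 bp, overlapped no BRG1, and ACBI H3K27ac covered 100%, 63.3% and 87.9% of their lengths. In the 98 kb window, H3K27ac peaks covered 19.98 kb in ACBI and 48.9 kb in DMSO, and 12 of 16 DMSO peaks were lost.

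RefSeq lists 4 promoters for WT1. The outermost, 250 bases before to 50 after the start site (GRCh38.p14, chr11:32435490-32435789, minus strand), is shown because the lost peak lay over the 5′ end; capitals mark CG dinucleotides. These coordinates are of another build than the peaks and were not set against them.
WT1: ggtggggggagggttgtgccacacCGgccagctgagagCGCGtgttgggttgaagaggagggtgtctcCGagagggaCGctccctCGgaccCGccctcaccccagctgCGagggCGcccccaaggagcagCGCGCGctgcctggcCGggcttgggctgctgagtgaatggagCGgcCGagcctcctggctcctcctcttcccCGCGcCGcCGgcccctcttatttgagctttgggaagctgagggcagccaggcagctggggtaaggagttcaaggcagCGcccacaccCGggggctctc
It holds 21 CG dinucleotides and 70.0% G and C, against medians of 14 and 58.7% over 34943 RefSeq promoters of the same length. Its ratio of observed to expected CG was 0.575, beside a median of 0.577.

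TSPAN32 encodes a tetraspanin of blood cells, a membrane protein with a role in lymphocyte proliferation described in mouse. Its span is 2323 to 2339 kb on chromosome 11, on the plus strand, between C11orf21 and CD81 in RefSeq order. The window held no ACBI H3K27ac peak at all, against 3 DMSO peaks of 276, 6092 and 333 bp. The peak of 6092 bp (2321660 to 2327751) ran from 1.3 kb upstream of the 5′ end to 4.8 kb inside the gene. RUNX1, BRG1 and H3K4me3 peaks were all absent from the lists in this window. The nearest ACBI peaks lay 30781 and 71172 bp from the wide peak, which left a stretch of 108.0 kb without one. TSPAN32 was the only window of the 8 without any kept peak. With 3 peaks the share lost is loosely bounded, at 100% with an exact 95% interval from 29.2%. With flanks of 100 kb in place of 25 kb, 9 of 16 DMSO peaks were lost.

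FGD5 encodes an exchange factor for the GTPase CDC42, known in endothelium and as a marker of hematopoietic stem cells in mouse. Its span is 14860 to 14976 kb on chromosome 3, on the plus strand. No H3K27ac peak of either condition lay within 2 kb of the 5′ end. The widest acetylation lay deep in the gene, around a cluster of 5 RUNX1 peaks, 474 to 1438 bp wide, and 2 BRG1 peaks of 207 and 563 bp between 60.6 and 68.0 kb. There the DMSO list had 1 peak of 15800 bp (14918444 to 14934243), the widest DMSO peak of the 8 windows. In ACBI 3 peaks that summed to 9231 bp, the widest of 8456 bp, covered 58.4% of it, and all 5 RUNX1 and both BRG1 peaks stayed fully inside H3K27ac.

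Before this cluster every DMSO peak of the window was lost, within a run of 13 lost peaks that began upstream of the window. Past the cluster the FGD5 peaks were narrower in ACBI or not called. The next wide DMSO peak, 5122 bp, was overlapped by an ACBI peak of 496 bp, over 9.7% of its length. It was followed by a DMSO peak of 2633 bp with an ACBI peak of 796 bp. The lost peak of 7160 bp (14951517 to 14958676) came next, 91.5 to 98.7 kb from the 5′ end, 2070 bp from the nearest ACBI peak and with no factor. A further RUNX1 peak of 838 bp, 30.9 kb from the 5′ end and without BRG1, lay in a lost peak of 1900 bp. The H3K4me3 peak of the window, 2576 bp, lay 128.1 kb from the 5′ end, beyond the span on the side of NR2C2. H3K27ac there measured 2035 bp in ACBI and 2393 bp in DMSO. It held RUNX1 peaks of 587 and 469 bp and BRG1 peaks of 340 and 496 bp, each fully covered in both conditions. A gained ACBI peak of 756 bp lay upstream, from -16.7 to -15.9 kb. In all, 19 of 24 DMSO peaks of the window were lost.

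SORL1 encodes a sorting receptor that directs membrane proteins between the Golgi and endosomes. Its span is 121323 to 121504 kb on chromosome 11, on the plus strand. The 5′ end carried H3K4me3 (1396 bp), and H3K27ac there was 1036 bp wide in ACBI and 1301 bp in DMSO. A site with BRG1 (187 bp) and RUNX1 (916 bp) 29.6 kb into the gene was likewise kept, at 4188 bp in ACBI and 4983 bp in DMSO. Most of the rest was not called in ACBI: 34 of 44 DMSO peaks were lost (77.3%, 62.2 to 88.5), and H3K27ac peaks covered 12.3 kb in ACBI and 69.7 kb in DMSO.

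The widest lost peak of SORL1, 7518 bp (121422214 to 121429731), lay 99.2 to 106.7 kb from the 5′ end. It was the only 1 of the 8 that held a factor, with 2 RUNX1 peaks of 219 and 238 bp and no BRG1. It belonged to a run of 9 lost peaks over 30.7 kb, which included peaks of 2795, 3283 and 1999 bp. The nearest ACBI peak was 5992 bp away, and a stretch of 36.1 kb around it held none. The gained peak of the window, 176 bp, lay 33.7 kb from the 5′ end. Another wide DMSO peak, 7177 bp from 60.8 to 68.0 kb, counted as kept although 1 ACBI peak of 414 bp covered 5.8% of it. SORL1 thus had 2 DMSO peaks above 7 kb of which no more than 414 bp was called in ACBI.

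The promoter of SORL1 is shown because H3K4me3 lay at the 5′ end (RefSeq, GRCh38.p14, chr11:121452064-121452363, plus strand; capitals mark CG dinucleotides).
SORL1: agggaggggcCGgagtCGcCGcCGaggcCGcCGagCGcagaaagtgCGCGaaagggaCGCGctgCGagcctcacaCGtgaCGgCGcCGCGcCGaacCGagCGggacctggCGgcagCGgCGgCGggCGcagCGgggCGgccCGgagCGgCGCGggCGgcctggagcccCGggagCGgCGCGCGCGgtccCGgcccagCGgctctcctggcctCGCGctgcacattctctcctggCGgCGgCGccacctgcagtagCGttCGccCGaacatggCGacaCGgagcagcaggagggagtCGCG
It holds 52 CG dinucleotides and 78.0% G and C, with a ratio of observed to expected CG of 1.15.

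MCM5 encodes a subunit of the helicase that opens DNA at replication origins, and is transcribed in dividing cells. Its span is 35796 to 35820 kb on chromosome 22, on the plus strand. MCM5 had the lowest share lost of the 8 windows, 4 of 14 DMSO peaks (28.6%, 8.39 to 58.1), beside 59.1% in the whole list. The 5′ end held H3K4me3 of 2380 bp and a RUNX1 peak of 232 bp without BRG1. H3K27ac covered the RUNX1 peak fully in both conditions. It covered 65.7% of the H3K4me3 peak in ACBI and 100% in DMSO. H3K27ac over the 5′ end was 1 DMSO peak of 3331 bp, overlapped by ACBI peaks of 1830 and 1835 bp. The lost peak of 6093 bp (35815004 to 35821096) lay over the 3′ end, 19.0 to 25.1 kb from the 5′ end, beside a lost peak of 2191 bp. The nearest ACBI peak was 1180 bp away. The widest kept DMSO peak, 6151 bp from 6.5 to 12.7 kb, was overlapped by 2 ACBI peaks that covered 55.6% of it. The widest of 3 gained peaks measured 195 bp. Further downstream, towards RASD2, an ACBI peak of 6204 bp overlapped 3 DMSO peaks of 3900, 599 and 2601 bp. It was wider than each of them singly. ACBI peaks covered 78.1%, 100% and 36.9% of these DMSO peaks.

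RAB40C encodes a small GTPase of the Rab family that takes part in ubiquitin ligase complexes. Its span is 639 to 679 kb on chromosome 16, on the plus strand, in a gene-dense region, and its window held the most H3K4me3 peaks, 7. At the 5′ end, BRG1 (794 bp) and RUNX1 (621 bp) overlapped each other and an H3K4me3 peak of 2028 bp. H3K27ac there measured 897 bp in ACBI and 2647 bp in DMSO. The ACBI peak covered 22.1% of the RUNX1 peak and 40.3% of the BRG1 peak, while DMSO H3K27ac covered each fully. This was the only BRG1 peak of the 11 that ACBI H3K27ac did not cover fully.

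The lost peak of RAB40C, 6536 bp (665874 to 672409), lay 26.9 to 33.4 kb from the 5′ end and ended a run of 7 lost peaks over 23.1 kb, 6578 bp from the nearest ACBI peak. Beyond it, a DMSO peak of 6656 bp counted as kept with 230 bp in ACBI, 3.5% of its length. Upstream, on the side of PIGQ, an ACBI peak of 6878 bp overlapped DMSO peaks of 5668 and 6859 bp and held H3K4me3 (1796 bp) and BRG1 (168 bp). ACBI peaks covered 84.0% of the first of these DMSO peaks and 29.5% of the second, the widest kept peak of the window. The gained peak of the window, 749 bp, lay upstream, from -8.3 to -7.6 kb. The H3K4me3 peaks away from the 5′ end were 286 to 2266 bp wide. BRG1 and RUNX1 overlapped each other at 2 further sites beyond the 3′ end, with BRG1 of 267 and 294 bp and RUNX1 of 258 and 214 bp. ACBI H3K27ac covered both BRG1 peaks fully, and 48.8% and 100% of these RUNX1 peaks. Over the window, H3K27ac peaks covered 12.6 kb in ACBI and 39.0 kb in DMSO. The count of lost peaks depended on the overlap rule: 8 of 16 had no ACBI peak, and 14 of 16 were less than 50% covered. When both lists were cut to the same number of peaks by width, 3 of 11 were lost (27.3%).

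RefSeq lists 3 promoters for RAB40C. The outermost is shown because RUNX1, BRG1 and H3K4me3 met at the 5′ end (GRCh38.p14, chr16:589107-589406, plus strand; capitals mark CG dinucleotides).
RAB40C: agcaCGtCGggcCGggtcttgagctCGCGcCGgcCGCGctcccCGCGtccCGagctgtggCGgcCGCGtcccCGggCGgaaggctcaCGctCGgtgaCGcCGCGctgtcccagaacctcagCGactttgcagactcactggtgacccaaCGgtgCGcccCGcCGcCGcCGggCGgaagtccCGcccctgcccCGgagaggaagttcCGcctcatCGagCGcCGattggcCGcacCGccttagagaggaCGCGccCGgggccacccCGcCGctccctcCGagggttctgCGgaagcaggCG
It holds 45 CG dinucleotides and 74.7% G and C, with a ratio of observed to expected CG of 1.08.

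ZMYND8 encodes a chromatin reader with a bromodomain, which binds acetylated histones. Its span is 45838 to 45986 kb on chromosome 20, on the minus strand. The window held 27 H3K27ac peaks in ACBI, the most of the 8, and 35 in DMSO, and no peak of RUNX1 or BRG1. The same 35 DMSO peaks were counted with no flank and with flanks of 100 kb, so the acetylation lay within the gene. At the 5′ end, with H3K4me3 peaks of 1235 and 182 bp, 1 ACBI peak of 6183 bp overlapped DMSO peaks of 4859 and 1082 bp. The lost peak of 6212 bp (45894358 to 45900569), 85.4 to 91.6 kb from the 5′ end, was the only lost peak in its run. A gained ACBI peak of 238 bp lay 34 bp from it, and the ACBI-free stretch was the shortest of the 8, 9.36 kb. Of the 27 ACBI peaks of the window 7 were gained, 165 to 742 bp wide, beside 21.4% of the whole ACBI list. The widest kept DMSO peak, 8240 bp from 34.4 to 42.7 kb, was overlapped by 3 ACBI peaks that covered 34.7% of it. The share lost, 48.6% at 1 bp, was 74.3% when 50% of a peak had to be covered and 30.4% when both lists were cut to the same number of peaks by width.

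For ZMYND8 the outermost of 2 RefSeq promoters is shown because H3K4me3 lay at the 5′ end (GRCh38.p14, chr20:47356650-47356949, minus strand; capitals mark CG dinucleotides).
ZMYND8: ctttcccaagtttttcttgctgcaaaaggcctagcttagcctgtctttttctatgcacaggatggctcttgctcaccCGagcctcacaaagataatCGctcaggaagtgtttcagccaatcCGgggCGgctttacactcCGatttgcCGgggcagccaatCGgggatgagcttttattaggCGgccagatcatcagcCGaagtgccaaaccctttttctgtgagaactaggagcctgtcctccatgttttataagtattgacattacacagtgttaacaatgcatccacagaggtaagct
It holds 9 CG dinucleotides and 48.3% G and C, with a ratio of observed to expected CG of 0.516. The 4 sequences therefore ranged from 9 to 52 CG dinucleotides, and the WT1 and ZMYND8 ratios lay below the median of all promoters. The table held 11 promoters of 5 of the genes. None contained TGTGGT, the core RUNX motif, on either strand, while 13.1% of all promoters did. No match says only that these letters are not in these windows.

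TSNARE1 encodes a protein with a SNARE domain, linked to trafficking between endosomes. Its span is 143293 to 143485 kb on chromosome 8, on the minus strand, the longest of the 8. At the 5′ end lay 2 H3K4me3 peaks of 682 and 611 bp and a BRG1 peak of 308 bp without RUNX1. H3K27ac there was 1680 bp wide in ACBI and 1664 bp in DMSO, so this 5′ end had nearly the same called width in both. The lost peak of 5999 bp (143354883 to 143360881) lay 124.1 to 130.1 kb from the 5′ end with no factor, in a run of 7 lost peaks over 79.0 kb. No ACBI peak lay within 9865 bp of it, and the stretch without one was 85.3 kb. A wide peak beyond the 3′ end was kept, with 6235 bp in ACBI and 6907 bp in DMSO, and held the third H3K4me3 peak of the window, 332 bp. The widest of 3 gained peaks measured 262 bp. Of the 26 DMSO peaks, 18 were lost.

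**Figure D2:**
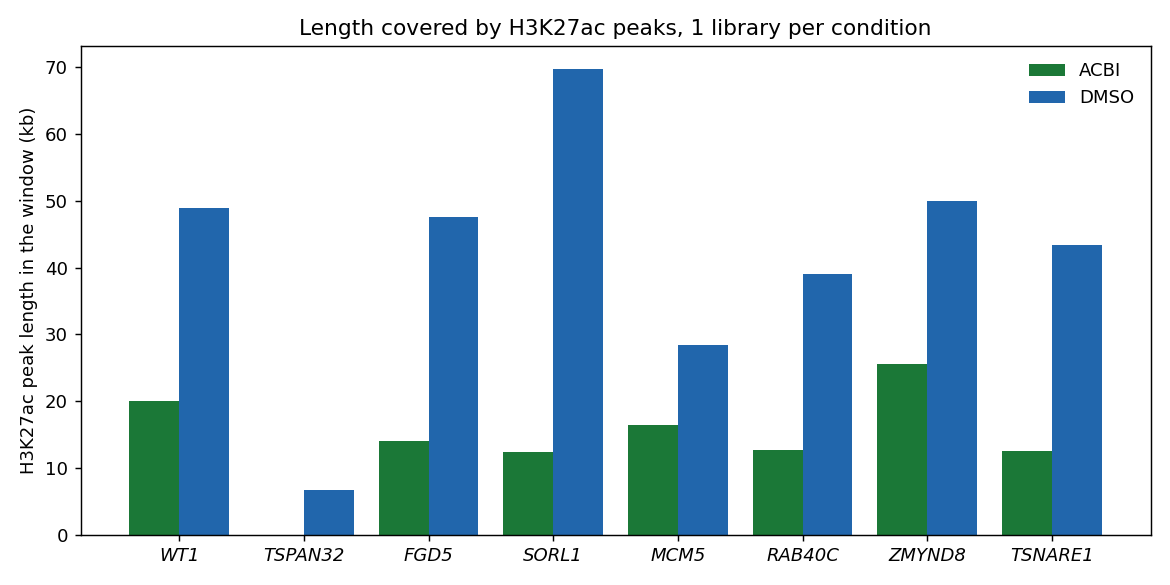
Length of each window covered by H3K27ac peaks, in kb, in ACBI (green) and DMSO (blue), with 1 library per condition and no error bars. The ACBI bar is the shorter at all 8 genes, from 0 kb in ACBI against 6.70 kb in DMSO at TSPAN32 to 25.6 kb against 49.97 kb at ZMYND8.

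Across the 8 windows, 115 of 178 DMSO peaks were lost (64.6%, exact Clopper-Pearson 95% interval 57.1 to 71.6). Intervals on shares cover counting error over peaks only, and neighbouring peaks are not independent. Since the genes were chosen for a lost peak, nothing is read from this against the 59.1% of the whole list. Without the 8 chosen peaks, 107 of 170 (62.9%, 55.2 to 70.2) were lost. By length, ACBI peaks covered 113.5 kb and DMSO peaks 333.5 kb of the windows, a ratio of 0.340 beside 0.556 for the whole lists. ACBI peaks covered 28.3% of the DMSO length in the windows, or 34.0% without the chosen peaks, and 44.3% over the whole list.

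The share lost varied among the windows. Intervals overlapped for every pair of windows except SORL1 (62.2 to 88.5%) and MCM5 (8.39 to 58.1%), so most of the order is unresolved. FGD5 (79.2%, 57.8 to 92.9), SORL1 and WT1 (75.0%, 47.6 to 92.7) had the highest shares after TSPAN32. They were followed by TSNARE1 (69.2%, 48.2 to 85.7), RAB40C (8 of 16, interval 24.7 to 75.3%), ZMYND8 (48.6%, 31.4 to 66.0) and MCM5. The intervals of neighbours in this order overlap. By length, the ratio of ACBI to DMSO was lowest after TSPAN32 at SORL1, 0.177, and highest at MCM5, 0.578, and ZMYND8, 0.512.

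**Figure D3:**
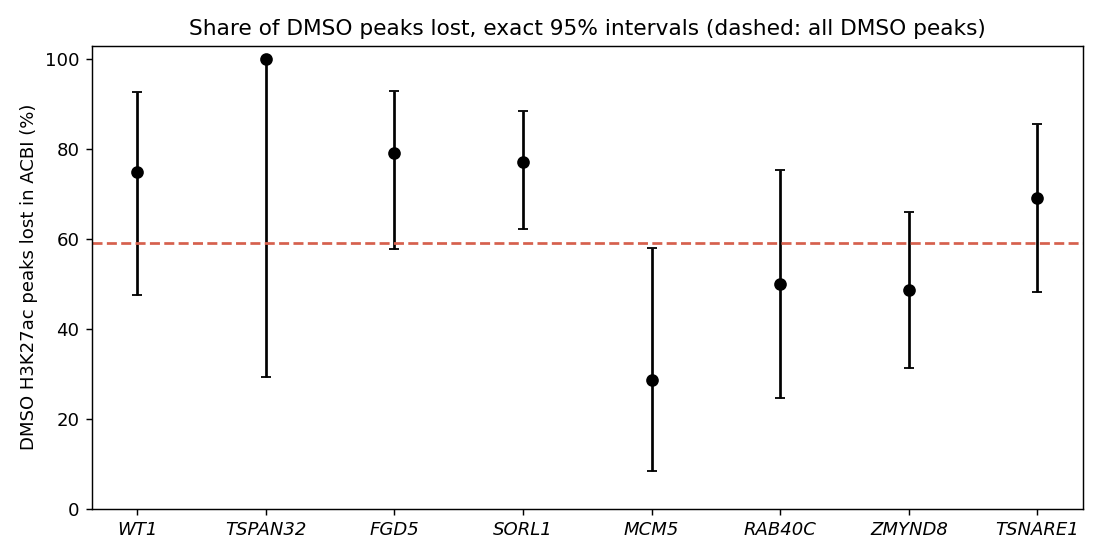
Share of DMSO H3K27ac peaks with no overlapping ACBI peak in each window, in percent, with exact 95% intervals over peaks; the dashed line is the 59.1% of the whole DMSO list. MCM5 has the lowest share, 28.6%, and TSPAN32, with 3 peaks, the highest and the widest interval.

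Peak width went with the call. Lost DMSO peaks of the windows had a median width of 676 bp and kept ones 1901 bp, beside 499 and 1642 bp in the whole list. Besides the chosen peaks, 41 of 46 peaks under 500 bp were lost (89.1%, 76.4 to 96.4), beside 86.2% of such peaks in the whole list. At 500 to 1000 bp it was 33 of 47 (70.2%, 55.1 to 82.7), beside 72.1%. At 1 to 3 kb it was 30 of 56 (53.6%, 39.7 to 67.0), beside 34.5%, and at 3 kb or more 3 of 21 (14.3%, 3.05 to 36.3), beside 4.11%. These values describe windows that the contrast itself picked. At the shares of the whole list in 10 width bins, 92.6 of the 170 would be lost, against 107 observed. The genes differed in direction. SORL1 had 33 observed against 22.8 at like width, FGD5 18 against 13.0, TSNARE1 17 against 13.0 and WT1 11 against 7.9. ZMYND8 had 16 against 20.6 and MCM5 3 against 6.3. Nearly equal were TSPAN32, with 2 against 1.7, and RAB40C, with 7 against 7.2. These counts carry no interval.

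**Figure D4:**
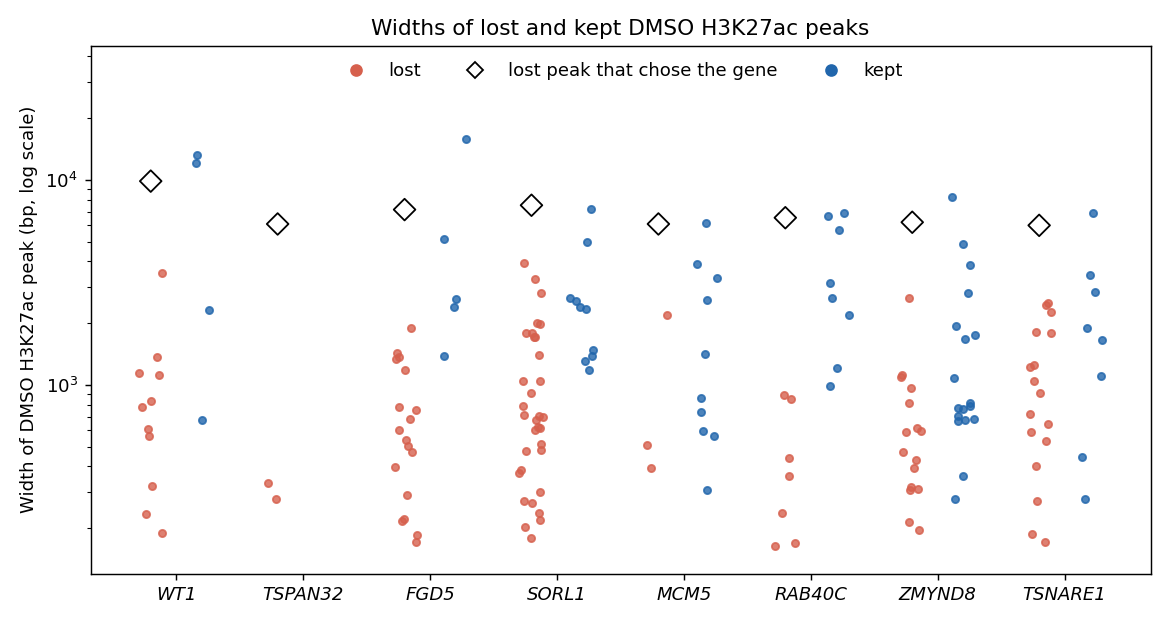
Width of each DMSO H3K27ac peak in bp (log scale) by gene, with lost peaks in red and kept peaks in blue, 178 peaks in all; open diamonds are the lost peaks that chose the genes. The diamonds lie between 5999 and 9858 bp, above every other lost peak, the widest of which is 3929 bp.

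By position, 3 of 8 DMSO peaks within 2 kb of the 5′ ends were lost (37.5%, 8.52 to 75.5), or 1 of 6 without the chosen peaks of WT1 and TSPAN32. In the rest of the gene spans 94 of 135 were lost (69.6%, 61.1 to 77.2), or 88 of 129 without the chosen peaks. Outside the spans, 18 of 35 were lost (51.4%, 34.0 to 68.6). The 3 intervals overlap. The genes were chosen for a lost peak at or in the span, and neighbouring peaks are not independent. Leaving out the chosen peaks does not remove this, so the shares by position are a description. No share of the whole list by position was at hand to set beside them.

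Kept peaks were mostly narrower in ACBI, in these windows and over the whole lists. Of the 63 kept DMSO peaks, 48 paired with exactly 1 ACBI peak that overlapped no other DMSO peak. In these pairs the median width was 745 bp in ACBI and 1569.5 bp in DMSO, and in 37 of the 48 the narrower peak was that of ACBI. Over the whole lists the medians of such pairs were 880 bp in ACBI and 1457 bp in DMSO, with ACBI narrower in 74.5% of pairs. The part of sequencing depth in these widths was not tested. ACBI peaks covered a median of 48.5% of a kept peak, beside 59.4% over the whole list. Under 50% was covered of 33 of the 63, beside 40.3% of all kept peaks. Among the 11 kept peaks of 5 kb or more, 3 were covered by under 10%, 1 each at SORL1, FGD5 and RAB40C. The ACBI list had 8 peaks of 3 kb or more in the windows and the DMSO list 29, or 21 without the chosen peaks. The chosen peaks were taken for their width in DMSO and absence in ACBI, so part of this difference was set by the choice.

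A smaller share of DMSO H3K27ac peaks held RUNX1 or H3K4me3 in the windows than in the whole list. The BRG1 share was near that of the whole list. Over the whole list 93.3% of lost peaks held none of the 3, so windows chosen for a lost peak are not independent of these marks, and the shares are a description. Of the 178 DMSO peaks, 13 held RUNX1 (7.30%, 3.95 to 12.2), beside 14.4% in the whole list. BRG1 was held by 9 (5.06%, 2.34 to 9.38), beside 6.87%, and H3K4me3 by 11 (6.18%, 3.12 to 10.8), beside 11.7%. Without the 8 chosen peaks, 12, 9 and 11 of the 170 held RUNX1, BRG1 and H3K4me3. RUNX1 was absent from the windows of TSPAN32, ZMYND8 and TSNARE1, and BRG1 from those of MCM5, TSPAN32 and ZMYND8. Of the 11 BRG1 peaks, 9 overlapped RUNX1, with no value of the whole list to set beside it.

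Acetylation at the factor sites was mostly kept. All 20 RUNX1 peaks overlapped DMSO H3K27ac, beside 83.8% of the whole RUNX1 list. All 20 also lay fully inside DMSO H3K27ac. Of the 20, 17 (85.0%, 62.1 to 96.8) still overlapped H3K27ac in ACBI. Over the whole list, 76.1% of the RUNX1 peaks that overlapped DMSO H3K27ac did so. The 3 RUNX1 peaks of the windows that did not were those at SORL1 and FGD5 described above. These 3 overlapped no BRG1 peak, but of all 20 RUNX1 peaks only 9 did, so nothing is read from this. All 11 BRG1 peaks overlapped DMSO H3K27ac, beside 91.9% of the whole list. All 11 overlapped H3K27ac in ACBI (100%, 71.5 to 100), beside 76.3%. Both intervals include the values of the whole lists. Fully covered in ACBI were 13 of the 20 RUNX1 peaks, beside 46.8% of the whole list, and 10 of the 11 BRG1 peaks, beside 57.5%. Among H3K4me3 peaks, 17 of 18 overlapped DMSO H3K27ac, beside 92.8% of the whole list, and 15 of these 17 overlapped ACBI H3K27ac (88.2%, 63.6 to 98.5), beside 84.0%. The 2 that lost it, of 887 and 286 bp, both lay in the RAB40C window next to wider H3K4me3 peaks.

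**Figure D5:**
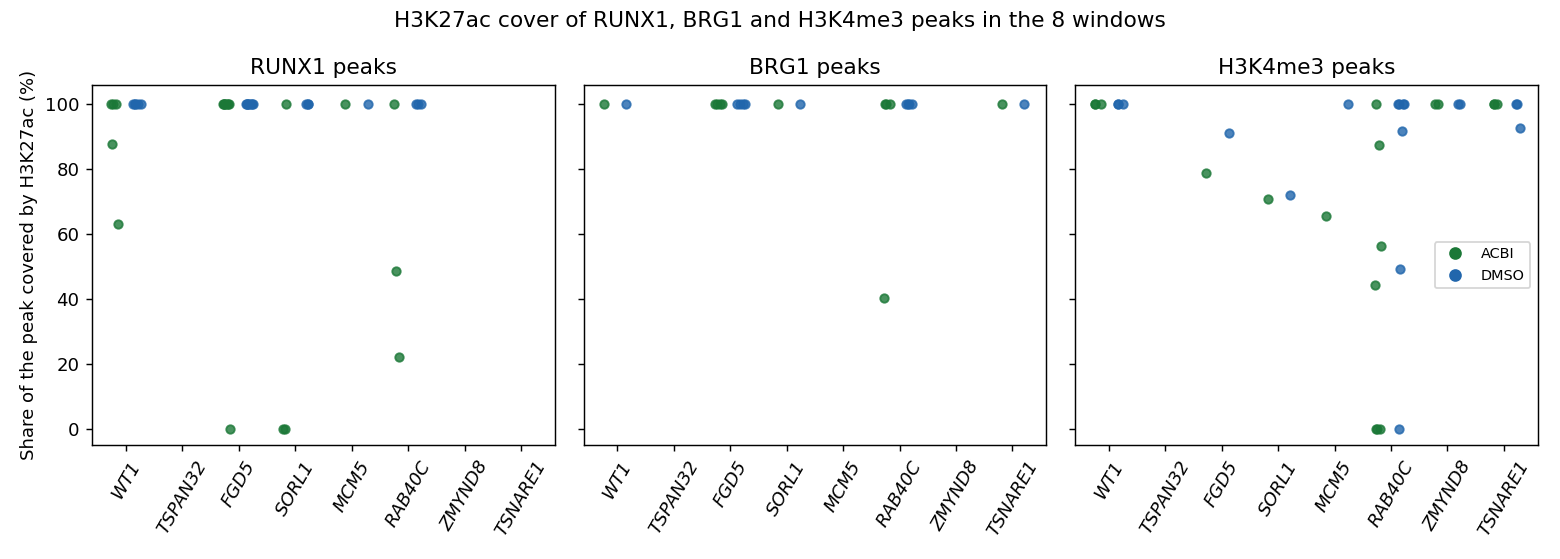
Percentage of each RUNX1, BRG1 and H3K4me3 peak covered by H3K27ac in ACBI (green) and DMSO (blue), by gene; each point is 1 peak. Of the 20 RUNX1 peaks, the 3 at 0% in ACBI belong to SORL1 (2) and FGD5 (1), and no BRG1 peak is at 0%.

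Counted by H3K27ac peak, 2 of the 13 DMSO peaks with RUNX1 were lost (15.4%, 1.92 to 45.4), beside 20.6% in the whole list. None of the 9 with BRG1 was (0 to 33.6%), beside 14.8%, and none of the 11 with H3K4me3 (0 to 28.5%), beside 14.5%. Of the 160 with none of the 3, 113 were lost (70.6%, 62.9 to 77.6), beside 68.0%. Each of these intervals includes the share of the whole list. Of the 115 lost peaks 113 held none of the 3 (98.3%, 93.9 to 99.8), beside 93.3% of all lost peaks. Width moved with this split: peaks with a factor or H3K4me3 had a median of 3239.5 bp and those with none 782.5 bp. The part of width in it was not tested.

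The share of gained peaks was near that of the whole list. Of the 86 ACBI peaks, 16 were gained (18.6%, 11.0 to 28.4), beside 21.4% in the whole list. Their median width was 233 bp, with no value of the whole list to set beside it, and the widest, at FGD5, measured 756 bp. Within 1 kb of a DMSO peak lay 12 of the 16, beside 42.0% of all gained peaks. None was gained in the window of WT1, which held 5 ACBI peaks, or in that of TSPAN32, which held no ACBI peak that could be gained.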

How the data were processed

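The authors deposited 5 lists of CUT&RUN peaks of DND-41 cells as chromosome, start, end and peak name, with no score, fold or read count, so positions are the only values and depth is unknown. Per the submitters' processing notes, positions are in hg19 and MACS2 and SEACR were used. RUNX1 peaks are, per the file headers, MACS2 peaks, and the H3K27ac lists hold broad peaks at q below 0.01. The aligner, other thresholds, controls and pooling are not stated in the sources used here. The 4 control libraries were not analysed here.

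Gene spans came in kb and were widened by 25 kb on each side; any overlap put a peak in a window. Peaks overlapped at 1 bp. Shares carry exact Clopper-Pearson 95% intervals. Runs are consecutive lost DMSO peaks. Overlaps, checked on simulated intervals and against bedtools 2.31.1 (0 peaks differing over 20 pairs of lists), used Python 3.11.15, numpy 2.4.6, pandas 2.3.3 and scipy 1.17.1, with matplotlib 3.10.9. Neighbouring genes, strands of 5 genes and promoters came from RefSeq (GRCh38.p14); the strands of MCM5, TSPAN32 and TSNARE1 are general knowledge. The 8 genes, the windows and the settings were chosen with earlier results of these data known. The text names all 8 genes, with the widest lost, kept and gained peak of each window where there is one, and the factor and H3K4me3 peaks singly or, above 4 in a window, by range and count.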

Additional observations from a re-analysis of the deposited data

How the results depend on the processing

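No paired analysis was possible because each condition had 1 H3K27ac library. With 50% of the peak covered in place of 1 bp, 83.1% of DMSO peaks in the windows were lost and 30.2% of ACBI peaks gained, beside 75.6% and 32.4% over the whole lists. Accepting a peak within 1 kb gave 4.65% gained, beside 12.4% over the whole lists. Peaks of at least 500 bp gave 10.2% gained and 66.7% lost, beside 17.1% and 55.2%. Taking as many of the widest DMSO peaks as there are ACBI peaks gave 53.7% lost, beside 40.7% over the whole lists. Of 39 values for the windows together, 34 were inside the 95% interval of the value reported (for the covered length, within 1.5 times). Among these 34 were the 66.7% lost and every value for flanks of 0 and 100 kb. By gene, 35 of 40 shares lost stayed within their intervals; 4 of the 5 others came from the 50% rule. TSPAN32 rests on 3 peaks. With unknown depth and 1 library each, a lost peak cannot be told apart from one that a shallower library missed.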
